A study of Capra hircus with 40 samples.

Results

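The uterus of 2-month-old female Jining gray goats (Capra hircus) was set against the ovary of the same age, as 5 uterus libraries against 5 ovary libraries of mature miRNA counts. These 10 libraries were taken from the 40 of the series by the tissue and month in their names. The series counted miRNAs in untreated ovaries and uteri of animals from 1 farm at day 1 and at months 2, 4 and 6 after birth, with 5 separately numbered individuals for each tissue and age. The labels name whole tissue only: they give neither the part of the uterus nor the cells it held, and whether a given goat gave both organs is not stated. The comparison asks how the miRNA content of the uterus differed from that of the ovary at month 2 of sexual maturation.

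A miRNA is a short RNA cut from a hairpin precursor, and it lowers the output of messenger RNAs that pair with its seed. Either arm of the hairpin can be kept, named 5p or 3p. The uterus is a tube of the posterior body axis with a wall of smooth muscle around a stroma lined by epithelium, whereas the ovary is a gonad of follicles, granulosa cells and stroma. Many miRNAs are tied to such cell types or body positions: the miR-143/miR-145 cluster to smooth muscle, the miR-200 family to epithelium, the miR-10 and miR-196 genes to the HOX clusters they lie in, and miR-202 to the gonads.

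The table held 427 mature miRNAs. Library totals ran from 7459887 to 8149915 counts in the uteri and from 5719892 to 7387622 counts in the ovaries. A uterus library held 369.4 ± 10.2 miRNAs with at least 1 count and an ovary library 359.6 ± 7.30 (SD, n = 5 each), a difference of 9.80 that the exact permutation test did not call (two-sided p = 0.127; the smallest p possible was 0.00794). Another 77 miRNAs, at most 0.542 CPM (counts scaled to the library total) in the mean, were too low to test, and 18 of them had 0 counts in all 10 libraries. Levels below are CPM, listed in the order of replicates 1 to 5, and sums over lists are of CPM. Log2 fold changes are uterus over ovary from edgeR's quasi-likelihood fit, and a call is an adjusted p under 0.05 over all 350 miRNAs tested.

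Uterus replicate 1 and ovary replicate 2 stood apart from their groups. Over the 10 libraries, 231 miRNAs had a mean of at least 10 CPM. Uterus replicate 1 lay more than 2-fold above all 4 other uteri for 32 of them and more than 2-fold below all 4 for 80. Ovary replicate 2 lay more than 2-fold above the other ovaries for 13 and below them for 4, and none of the 8 remaining libraries passed 3 above or 5 below. With the day 1 libraries added, uterus replicate 1 fell at 17.76 on the first principal component, inside the 13.87 to 20.51 of the day 1 uteri and away from the -12.7 to -5.34 of the other month 2 uteri. Whether its tissue or label is the reason was not tested. Values without one or both of these libraries are given beside the results below.

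**Figure D1:**
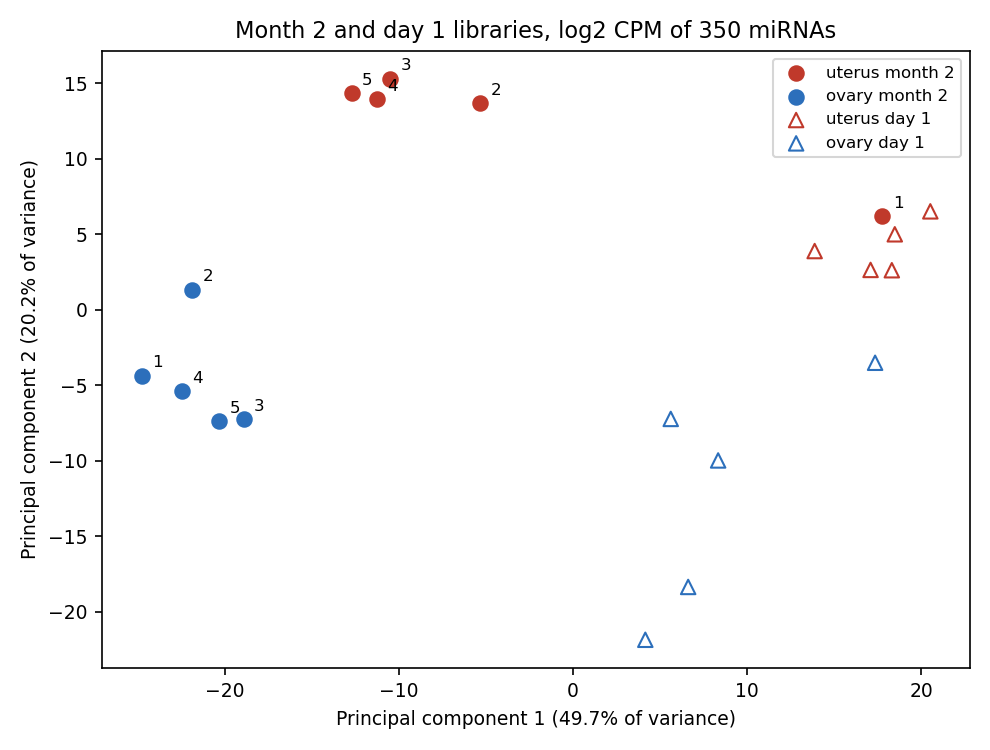
Principal components 1 and 2 (49.7% and 20.2% of the variance) of log2 CPM for 350 miRNAs in the month 2 libraries (filled circles, replicate number beside each) and the day 1 libraries (open triangles), uterus in red and ovary in blue. The month 2 ovaries lie between -24.75 and -18.9 on component 1, the month 2 uteri 2 to 5 between -12.7 and -5.34, and uterus replicate 1 at 17.76 among the day 1 uteri.

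Of the 350 miRNAs tested, 89 were called (25.4%), 37 higher in uterus (10.6%) and 52 lower (14.9%). All 5 uteri lay above all 5 ovaries for 28 of the 37 and below them for 40 of the 52. Over all 350, the groups did not overlap for 91 (26%), 40 with uterus above (11.4%) and 51 with uterus below (14.6%). The 37 took 6.91% ± 1.09 of the counts in uterus and 1.96% ± 0.426 in ovary (SD, n = 5 each). The 52 took 6.47% ± 0.598 in uterus and 14.05% ± 1.28 in ovary. The median log2 fold change over all 350 was -0.05, and 0.13 with DESeq2 size factors, under which 51 were higher and 44 lower. The directions below are relative to that median. Without uterus replicate 1, 22 were higher (6.23% of 353) and 42 lower (11.9%), and without ovary replicate 2, 28 were higher (7.93%) and 50 lower (14.2%). Without both, 18 were higher (5.1%) and 37 lower (10.5%).

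**Figure D2:**
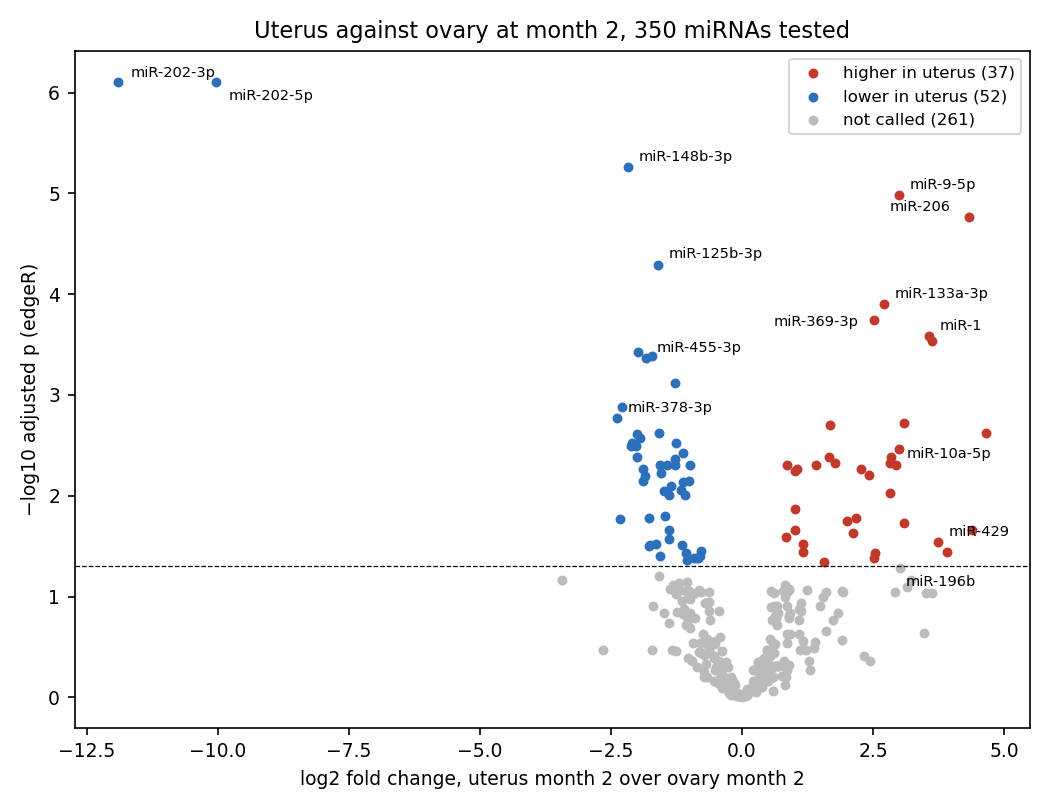
Log2 fold change of uterus over ovary at month 2 (horizontal) against the −log10 adjusted p of edgeR (vertical) for 350 miRNAs, 37 called higher in red, 52 called lower in blue and the rest in grey; the dashed line marks an adjusted p of 0.05. The miR-202 arms lie far to the left, where the fitted value depends on the prior count and is no bound, and miR-148b-3p, miR-206 and miR-9-5p have the lowest adjusted p-values of the others.

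The gonad showed in miR-202, a hairpin known for its expression in ovary and testis. miR-202-3p stood at 0, 0, 0, 0 and 0 CPM in the uteri, against 42.6, 81.6, 80.4, 42.7 and 98.9 CPM in the ovaries. The uterus sum was 0 of 38695409 counts and the ovary sum 2220 of 32639409. Against a floor of 3 counts over the 5 uteri together, miR-202-3p was at least 877-fold lower in uterus (edgeR adjusted p = 7.76e-07). miR-202-5p stood at 0.402, 0, 0, 0 and 0 CPM in the uteri, against 52.2, 145, 115, 65.2 and 134 CPM in the ovaries. The 3 uterus counts all came from replicate 1, and the ratio of the summed levels was 1288-fold lower in uterus (95% interval 441 to 6245, from the uterus counts alone and for counting error only; edgeR adjusted p = 7.76e-07). No uterus value of either arm came near an ovary value.

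The rest of the gonad and granulosa list moved less. Of its 8 tested members, 4 were lower in uterus and 0 higher, against 14.9% and 10.6% of all 350. The 4 were both arms of miR-202 and both arms of miR-378. The median log2 fold change of the 8, with both miR-202 arms included, was -1.14, against -0.05 over all 350. miR-378-3p stood at 441, 692, 567, 733 and 607 CPM in the uteri, against 2246, 2605, 6042, 1831 and 2777 CPM in the ovaries. All uteri lay below all ovaries, with ovary replicate 3 highest, and the log2 fold change was -2.39 (SE 0.54, adjusted p = 0.0017). RefSeq (ARS1.2) places the goat hairpin MIR378 inside PPARGC1B, a coactivator gene of mitochondrial metabolism. The minor arm miR-378-5p followed with -1.76 (SE 0.61, adjusted p = 0.0306), a call lost without uterus replicate 1 or 2 or ovary replicate 3. miR-21-5p, a miRNA abundant in many growing tissues and in luteinizing granulosa cells, ranged over 2257 to 13511 CPM in uterus and 2990.5 to 6958 CPM in ovary and was not called (log2 fold change 0.09, adjusted p = 0.943). Its uterus maximum was that of replicate 1, and without that library the log2 fold change was -0.90. miR-383, miR-224-5p and miR-320-3p, all studied in granulosa cells, had log2 fold changes of -0.40, -0.19 and -0.52 and were not called either.

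Most of the tested miRNAs of striated muscle, and 1 of 4 of smooth muscle, were higher in uterus. The list of striated muscle miRNAs holds the miR-1/miR-206 and miR-133 families, which act in muscle differentiation. Of its 6 tested members, 5 were higher in uterus (against 10.6% of all 350) and 0 lower. The list median was a log2 fold change of 2.96. miR-206 stood at 108, 155, 173, 244 and 121 CPM in the uteri, against 7.83, 10.8, 6.63, 4.53 and 7.25 CPM in the ovaries. The groups were far apart, every uterus being above every ovary, and the log2 fold change was 4.33 (SE 0.68, adjusted p = 1.73e-05), the largest of the called miRNAs with a mean of at least 10 CPM. miR-1 stood at 6115, 2449, 2013, 1854 and 1271 CPM in the uteri, against 159.9, 334, 184, 275 and 189 CPM in the ovaries. Replicate 1 was the highest uterus and the groups again did not overlap, with a log2 fold change of 3.57 (SE 0.68, adjusted p = 0.00026) and 2.89 without replicate 1. miR-133a-3p stood at 397, 786, 665, 859 and 755 CPM in the uteri, against 78.9, 102, 101, 87.7 and 139.8 CPM in the ovaries. Here replicate 1 was the lowest uterus and still lay above all ovaries, with a log2 fold change of 2.71 (SE 0.49, adjusted p = 0.000125).

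The rarer miR-133a-5p (log2 fold change 3.09, adjusted p = 0.00191) and miR-133b (log2 fold change 2.82, adjusted p = 0.00933) were called in the same direction. miR-499-5p, which is carried in a myosin gene of heart and slow muscle, was not called: it stood at 4.22 to 16.9 CPM in uterus and 4.02 to 8.77 CPM in ovary (log2 fold change 0.23, adjusted p = 0.808). miR-208b, from another myosin gene of heart and slow muscle, had 0 counts in all 10 libraries, as did miR-499-3p. Summed over the list, levels ran from 2165 to 6659.6 CPM in the uteri and 254 to 451 CPM in the ovaries, and 5 members were also called higher without uterus replicate 1 and without ovary replicate 2. Without both libraries 4 were, and miR-133b was at 2.21 (adjusted p = 0.0693). In these bulk tissues, fewer cells of a type and less RNA in each cannot be told apart. How reads that match miR-1 and miR-206, or miR-133a and miR-133b, were shared is not given in the sources used here, so the split within each pair is uncertain.

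The miR-143/miR-145 cluster, the main miRNA locus of smooth muscle, was abundant in both tissues. Of its 4 members 1 was called higher, against 10.6% of all 350. miR-143-3p was the most abundant miRNA of the uteri, with 13.1% ± 6.58 of their counts, against 6.85% ± 1.39 in the ovaries (SD, n = 5 each). By library it stood at 245780.1, 126254, 97095, 102793 and 84565 CPM in the uteri, against 80527, 77360.2, 77886, 51796 and 55029.8 CPM in the ovaries. All uteri lay above all ovaries, yet the difference was not called (log2 fold change 0.92, adjusted p = 0.236), and replicate 1 held far more than the other uteri. miR-145-5p stood at 15545, 26311, 21820, 31497 and 19893 CPM in the uteri, against 9228, 4577, 13059.8, 10201 and 20955 CPM in the ovaries. Ovary replicate 5 overlapped the uteri, and the call at a log2 fold change of 1.01 (SE 0.31, adjusted p = 0.0134) was lost without ovary replicate 2 or 3 or uterus replicate 3 or 4 (0.64 without ovary replicate 2). The passenger arms miR-143-5p and miR-145-3p had log2 fold changes of 0.86 and 0.81 and were not called. The list had a median of 0.89, and with DESeq2 size factors 3 of the 4 were called higher.

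**Figure D3:**
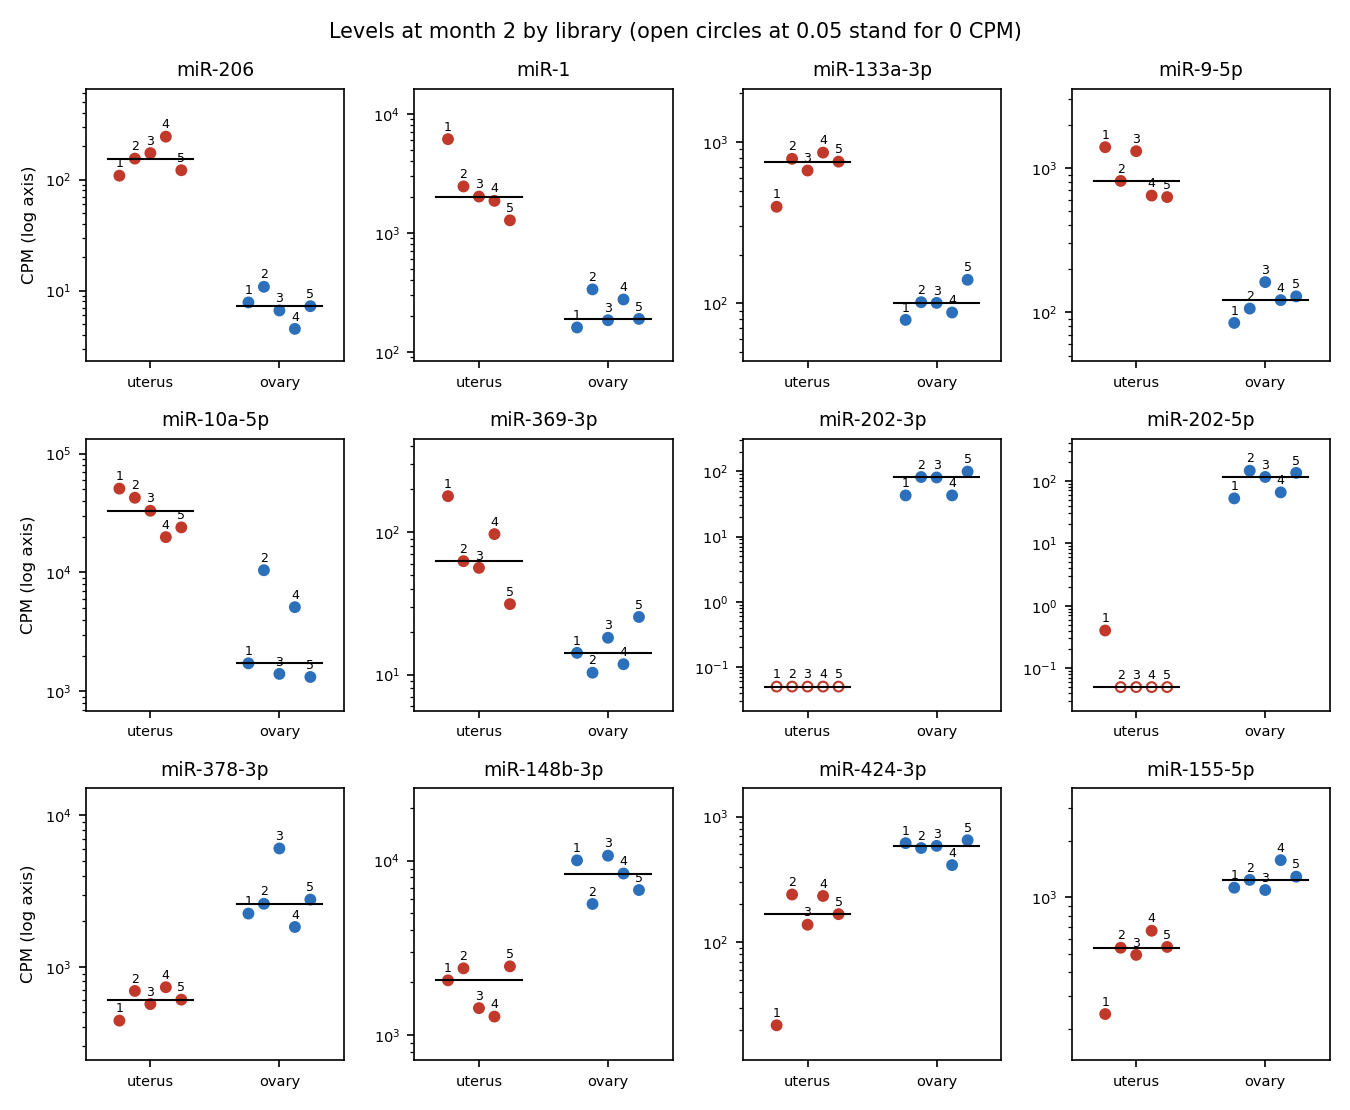
CPM of 12 miRNAs in each month 2 library (log axes, a scale for each panel), uterus in red at the left and ovary in blue at the right, with the replicate number above each point and a line at the median; open circles at 0.05 stand for 0 CPM. The first 6 panels are higher in uterus, with miR-206 at 108 to 244 CPM in uterus and at most 10.8 in ovary, and the last 6, from miR-202-3p to miR-155-5p, are lower in uterus.

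The HOX clusters pattern the body axis, and their posterior members shape the reproductive tract. Of the 6 miRNAs that lie inside them, 2 were called higher (against 10.6% of all 350), both arms of miR-10a. In this list 0 were lower and the median was 1.86. RefSeq (ARS1.2) sets MIR10A between HOXB5 and HOXB3, MIR10B between HOXD8 and HOXD3, MIR196A between HOXB13 and HOXB9, and MIR196B between HOXA9 and HOXA10. miR-10a-5p stood at 50798, 42548, 33080.1, 19840.1 and 23969 CPM in the uteri, against 1721, 10450, 1402, 5108 and 1320.2 CPM in the ovaries. The groups did not overlap, although ovary replicates 2 and 4 stood above the other ovaries, and the log2 fold change was 2.93 (SE 0.77, adjusted p = 0.0049). The 3p arm had a log2 fold change of 2.82 (SE 0.73, adjusted p = 0.00478), and ovary replicate 2 was again its highest ovary. Without that ovary the log2 fold change was 3.53 for the 5p arm miR-10a-5p and 3.76 for miR-10a-3p.

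miR-196b stood at 1076, 1628, 1341, 1072 and 1275 CPM in the uteri, against 71.8, 0.699, 71.5, 543 and 41.1 CPM in the ovaries. All uteri lay above all ovaries, but the ovaries themselves spread widely, lowest in replicate 2 and highest in replicate 4, and the log2 fold change of 2.91 (SE 1.29, adjusted p = 0.0901) was not called. Without ovary replicate 4 it was called at 4.82. miR-196a ranged over 25.1 to 302 CPM in uterus and 2.97 to 156 CPM in ovary and was not called (log2 fold change 0.83, adjusted p = 0.631), with the same ovary replicate 4 at the top of the ovaries. miR-10b-5p, the second most abundant miRNA of the uteri with 12.7% ± 2.82 of counts against 6.53% ± 2.10 in the ovaries (SD, n = 5 each), had a log2 fold change of 0.89 (adjusted p = 0.0837) and was called when ovary replicate 4 was left out and also with DESeq2 size factors. Summed, the list held 139562 to 210788 CPM in the uteri and 45672 to 94441 CPM in the ovaries, and 3 members were called higher with DESeq2 size factors and 5 with DESeq2's own test. Reads shared between miR-10a and miR-10b, which differ little in sequence, or between miR-196a and miR-196b, could shift their split.

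How many epithelial miRNAs were called higher in uterus depended on ovary replicate 2. The miR-200 family holds the epithelial state by repressing the ZEB factors. Summed, its 5 members held 5290.2 to 12006 CPM in the uteri, against 7034 CPM in ovary replicate 2 and 269.8 to 764 CPM in the other ovaries. Of the 5, 2 were called higher (against 10.6% of all 350), 0 lower, and the median log2 fold change was 3.23. Without ovary replicate 2 all 5 were higher, with a median of 4.46. Without uterus replicate 1, which held the lowest uterus sum, 1 was called, and without both libraries 4 were. With DESeq2 size factors 4 were called higher, and with library totals 3.

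miR-200b stood at 2713, 7435, 9314, 5726 and 7824 CPM in the uteri, against 217, 5991, 628, 197 and 489 CPM in the ovaries. Ovary replicate 2 alone reached the uterus range, the log2 fold change of 1.90 (SE 1.25, adjusted p = 0.267) was not called, and without that ovary it was 4.03 (adjusted p = 0.0365). miR-200c stood at 845, 1804, 1864, 1804 and 2637 CPM in the uteri, against 30.9, 623, 58.5, 46.5 and 45.6 CPM in the ovaries. Its log2 fold change was 3.23 (SE 1.303, adjusted p = 0.0681) with all libraries and 5.15 without ovary replicate 2, where it was called. miR-429 stood at 36.5, 42.6, 40.1, 24.3 and 30.1 CPM in the uteri, against 1.02, 7.34, 1.62, 0.292 and 2.07 CPM in the ovaries. miR-429 was called at a log2 fold change of 3.73 (SE 1.27, adjusted p = 0.0287), a call lost when any ovary other than replicate 2 was left out. miR-141, at 2.47 to 17.3 CPM in uterus and 0 to 1.05 CPM in ovary (log2 fold change 3.92, adjusted p = 0.0364), lost its call without uterus replicate 1 or without any ovary other than replicate 2. miR-200a had a log2 fold change of 3.02 (adjusted p = 0.0523), and 4.46 without ovary replicate 2. miR-200b, miR-200c and miR-429 have nearly the same sequence, and their split is uncertain.

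The miR-183/miR-96/miR-182 cluster is active in epithelia and sensory cells. Of its 3 members, 2 were higher in uterus, against 10.6% of all 350. miR-182 stood at 225, 123, 149.8, 137 and 112 CPM in the uteri, against 25.8, 30.6, 36.8, 45.0 and 20.5 CPM in the ovaries. The groups did not overlap, but the call at a log2 fold change of 2.16 (SE 0.68, adjusted p = 0.0166) was lost without uterus replicate 1 (1.87) and without ovary replicate 2, 3 or 5. miR-96 was rarer, at 1.05 to 6.30 CPM in uterus and 0.146 to 0.725 CPM in ovary, with a call at a log2 fold change of 3.09 (adjusted p = 0.0185) lost without uterus replicate 1. miR-183 had a log2 fold change of 1.495 (adjusted p = 0.123) and groups that did not overlap. Neither miR-203 nor miR-205 of stratified epithelium was listed in the table.

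Of the 9 tested members of the miR-34/miR-449 family, 0 were called, against 25.4% of all 350. The family is known from multiciliated cells such as those of the oviduct lining. Its sum was 4066 CPM in uterus replicate 1 and 55.4 to 657 CPM in the other uteri, against 1461 CPM in ovary replicate 2 and 12.1 to 134 CPM in the other ovaries. miR-34c-5p stood at 3652, 390.3, 58.4, 26.0 and 16.4 CPM in the uteri, against 7.98, 733, 96.8, 4.09 and 7.77 CPM in the ovaries. Uterus replicate 1 and ovary replicate 2 led their tissues by several-fold, and the value was a log2 fold change of 2.32 (adjusted p = 0.39) with all libraries, 4.82 without ovary replicate 2 and -0.73 without uterus replicate 1. miR-34b-3p had a log2 fold change of -0.21 and 4.15 without ovary replicate 2. The list median was 0.70 with all libraries, 4.15 without ovary replicate 2 and -0.57 without uterus replicate 1, so no direction is given for this family. Ovary replicate 2 was thus the highest ovary in both the miR-200 and the miR-34/miR-449 list. The part of epithelium or oviduct tissue in that library was not tested.

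**Figure D4:**
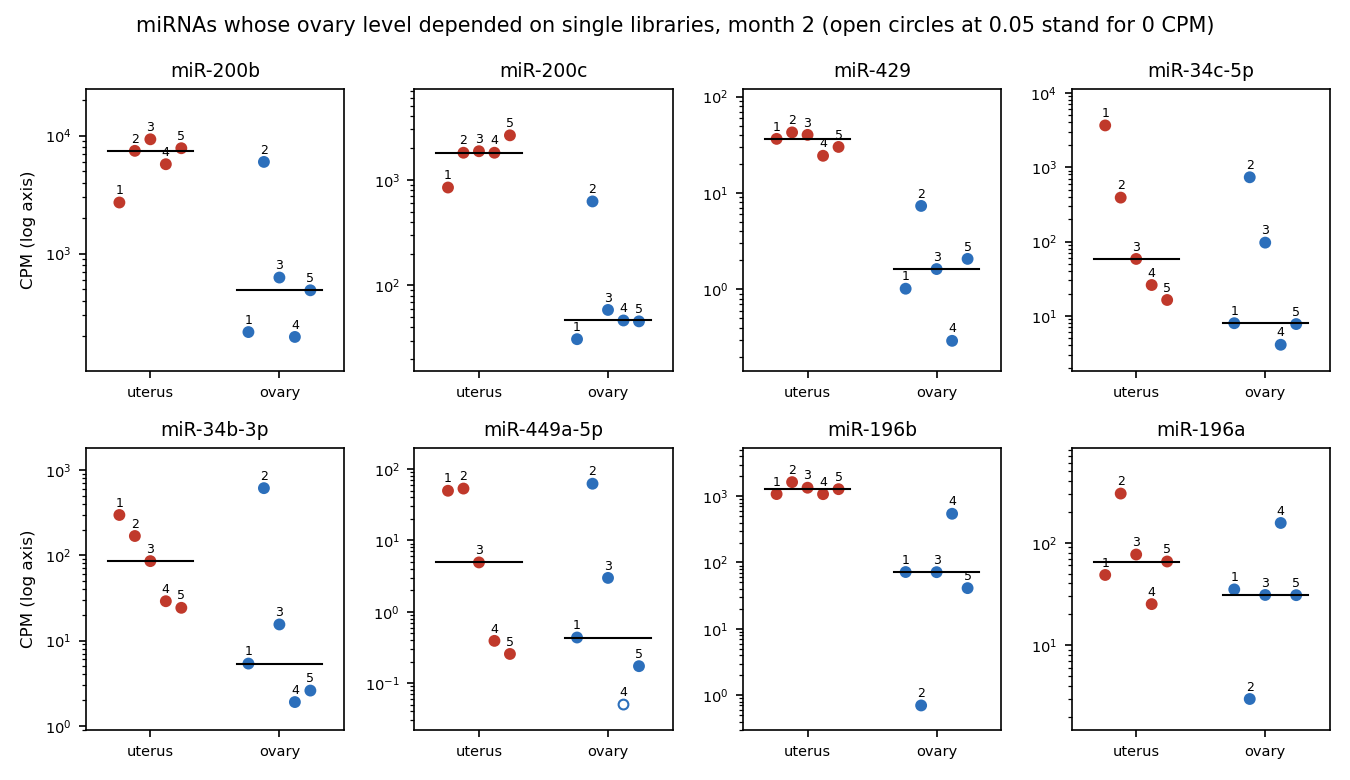
CPM by library (log axes, a scale for each panel) of 8 miRNAs whose ovary level depended on single libraries, uterus in red at the left and ovary in blue at the right, with replicate numbers and a line at the median; the open circle at 0.05 stands for 0 CPM. Ovary replicate 2 lies above the other ovaries for miR-200b, miR-200c, miR-429, miR-34c-5p, miR-34b-3p and miR-449a-5p, and below them for miR-196b and miR-196a, where replicate 4 is highest.

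The DLK1-DIO3 cluster is an imprinted locus that makes many miRNAs from the maternal chromosome and is active in fetal and early postnatal tissue. Of its 53 tested members, 9 were higher in uterus (against 10.6% of all 350) and 0 lower, and 8 had all uteri above all ovaries (against 11.4% of all 350). The list median was 0.49 and the members ran from -1.59 to 3.63. miR-369-3p stood at 178, 62.5, 56.1, 96.7 and 31.2 CPM in the uteri, against 14.2, 10.3, 18.1, 11.8 and 25.4 CPM in the ovaries. Replicate 1 was the highest uterus, all uteri lay above all ovaries, and the log2 fold change was 2.51 (SE 0.46, adjusted p = 0.00018), against 1.90 without replicate 1. miR-495-3p stood at 67.7, 92.6, 104, 109 and 74.6 CPM in the uteri, against 23.1, 26.4, 26.4, 21.8 and 42.8 CPM in the ovaries. Its log2 fold change was 1.65 (SE 0.42, adjusted p = 0.00415) and 1.69 without replicate 1. miR-3959-5p (log2 fold change 1.68, adjusted p = 0.00199) and miR-382-3p (log2 fold change 1.40, adjusted p = 0.0049) were also called. So were miR-655 (log2 fold change 1.01, adjusted p = 0.00571) and miR-487b-3p (log2 fold change 1.01, adjusted p = 0.0219). Both of these lost their calls without ovary replicate 2 or 3 or uterus replicate 3 or 4. The call of miR-487b-3p was also lost without ovary replicate 5 or uterus replicate 5 and with library totals. miR-382-3p was at 1.04 (adjusted p = 0.0673) without uterus replicate 1 and ovary replicate 2 together.

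The other 3 calls of the cluster rested on uterus replicate 1. miR-136-3p stood at 146, 11.3, 7.98, 16.4 and 6.53 CPM in the uteri, against 4.06, 5.94, 9.61, 7.01 and 11.9 CPM in the ovaries. The remaining 4 uteri overlapped the ovaries, and the log2 fold change of 2.51 (SE 0.93, adjusted p = 0.041) was 0.40 without that library, and the call was also lost without any single ovary. miR-376c-3p had a log2 fold change of 2.43 with all libraries and 1.53 without replicate 1, and miR-376e-3p 2.11 and 0.86, with both calls lost. The call of miR-376e-3p was also lost without ovary replicate 1, 2 or 3. Without uterus replicate 1 the cluster had 6 higher (6.23% of all miRNAs were) and 0 lower. Without ovary replicate 2 it had 5 of 54 higher (7.93% of all) and 1 lower, and without both 3 of 54 higher (5.1% of all) and 0 lower, a share near that of all miRNAs. DESeq2 size factors gave 10 and 0 and library totals 7 and 0. The summed level showed no such excess: it was 10265 CPM in uterus replicate 1 and 19643 to 31429 CPM in the other uteri, against 23606 to 30506 CPM in the ovaries. Much of that sum was miR-127-3p, at means of 14081 CPM in uterus and 20901 CPM in ovary (log2 fold change -0.69, not called). The sum therefore says little about the rarer members.

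The miR-17-92 family of clusters promotes proliferation, and 4 of its 19 tested members were lower in uterus, against 14.9% of all 350, and 0 higher. Counts were 2 lower without uterus replicate 1 (11.9% of all miRNAs were), without ovary replicate 2 also 2 (14.2% of all), and without both 1 (10.5% of all), each a share below that of all miRNAs. The median with all libraries was -0.72. miR-92a-3p stood at 1902, 9127, 14205, 20469 and 17345 CPM in the uteri, against 29717, 41727, 23299, 26534 and 25432 CPM in the ovaries. All uteri lay below all ovaries, replicate 1 lowest by far, and the call at a log2 fold change of -1.40 (SE 0.47, adjusted p = 0.0267) was lost without uterus replicate 1 (-1.12) or 2 or ovary replicate 1 or 2. miR-106b-3p stood at 363, 1067, 1113, 1440 and 1282 CPM in the uteri, against 2422, 2664, 2586, 1744 and 2310.4 CPM in the ovaries. Its groups did not overlap and its call at a log2 fold change of -1.27 (SE 0.34, adjusted p = 0.0049) was lost in none of the settings tried. miR-25-5p (log2 fold change -1.56, adjusted p = 0.0049) and miR-25-3p (log2 fold change -0.92, adjusted p = 0.041) complete the 4. The call of miR-25-3p was lost without any library but uterus replicate 4, and miR-25-5p was at -1.12 (adjusted p = 0.0524) without uterus replicate 1 and ovary replicate 2 together. miR-17-5p, miR-20a-5p and miR-93-5p, which share the main seed of the clusters, had log2 fold changes of -1.02, -0.72 and -0.68 and were not called. miR-106b-5p, of the same seed, went the other way at 0.65 (means of 26.5 CPM in uterus and 18.5 CPM in ovary) and was not called. With DESeq2 size factors 3 members were lower, and with library totals 2.

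The hairpins of miR-424, miR-450 and miR-542 lie together on the X chromosome, and miR-424 restrains the cell cycle. Of the 6 members of this group, 2 were lower (against 14.9% of all 350) and 0 higher, with a median of -0.74. miR-424-3p stood at 21.7, 239.6, 138, 233 and 167 CPM in the uteri, against 615, 562, 585, 411 and 649 CPM in the ovaries. All uteri lay below all ovaries, and the log2 fold change was -1.94 (SE 0.46, adjusted p = 0.00266). Its other arm, miR-424-5p, ranged over 10.4 to 153 CPM in uterus and 16.1 to 109.6 CPM in ovary and was not called (log2 fold change -0.10, adjusted p = 0.945). The call of miR-450-5p at a log2 fold change of -1.07 (adjusted p = 0.0367) was lost without uterus replicate 1, 3 or 5 or ovary replicate 1 or 5, and with DESeq2 size factors or library totals 1 member was lower. The median without uterus replicate 1 was -1.28.

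The let-7 family, which accumulates as tissues mature, made up much of both tissues, with sums of 195174 to 319941 CPM in the uteri and 336099.7 to 413416 CPM in the ovaries. Of its 16 tested members 1 was lower in uterus (against 14.9% of all 350) and 0 higher, with a median of -0.74. The called member, let-7i-5p, stood at 43537, 26977, 24369, 21308 and 19015 CPM in the uteri, against 41155, 42553, 61439, 44229 and 56274 CPM in the ovaries. Uterus replicate 1 overlapped the ovaries, and the call at a log2 fold change of -0.84 (SE 0.31, adjusted p = 0.041) was lost with DESeq2 size factors or library totals and without any of 6 single libraries, while it was -1.19 without uterus replicate 1. let-7c-5p was at 3.89% ± 1.38 of counts in uterus and 7.31% ± 1.41 in ovary (SD, n = 5 each), with all uteri below all ovaries, and was not called (log2 fold change -1.04, adjusted p = 0.156). let-7a-5p had a log2 fold change of -0.42 (adjusted p = 0.527) and ranged from -0.58 to 0.03 over all alternatives. Reads that match several let-7 members could have been assigned to any of them.

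**Figure D5:**
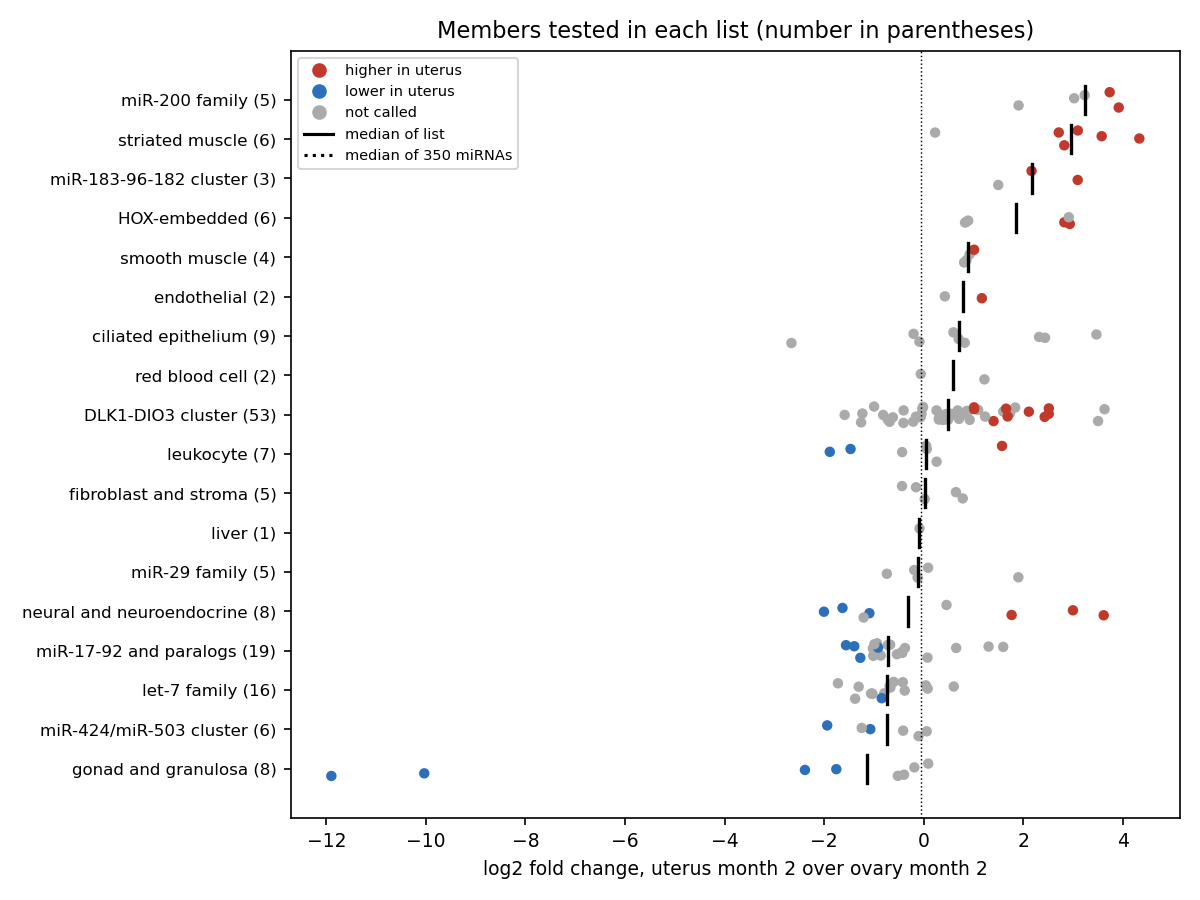
Log2 fold change of uterus over ovary at month 2 for the tested members of 18 lists (number tested in parentheses), called higher in red, called lower in blue and not called in grey, with a bar at each list's median and a dotted line at the median of the 350 miRNAs. The miR-200 family (3.23) and the striated muscle list (2.96) have the highest medians, and the gonad and granulosa list (-1.14), with the miR-202 arms at its far left, the lowest.

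Among markers of other cell types, the neural and neuroendocrine list split. Of its 8 members, 3 were higher and 3 lower in uterus, against 10.6% and 14.9% of all 350. miR-9-5p stood at 1393, 813, 1307, 644 and 629 CPM in the uteri, against 84.4, 106, 162, 121 and 129 CPM in the ovaries. miR-9 is a miRNA of neural progenitors, all uteri lay above all ovaries, and the log2 fold change of 3.00 (SE 0.46, adjusted p = 1.04e-05) carried the lowest adjusted p of the miRNAs higher in uterus. miR-9-3p at a log2 fold change of 3.61 (adjusted p = 0.000292) and miR-7-3p at a log2 fold change of 1.76 (adjusted p = 0.00478) were the others. They were at 2.89 and 1.26 without uterus replicate 1 and at 2.50 and 1.09 without ovary replicate 2 as well, where miR-7-3p was not called. The more abundant arm miR-7-5p, at means of 290 CPM in uterus and 227 CPM in ovary, was not called (log2 fold change 0.46). The 3 lower members were miR-128-5p (log2 fold change -2.005, adjusted p = 0.00245), miR-128-3p (log2 fold change -1.09, adjusted p = 0.00989) and miR-129-5p (log2 fold change -1.63, adjusted p = 0.0299), the last lost without any of 7 single libraries, uterus replicate 1 (-1.43) and ovary replicate 2 (-1.56) among them. miR-128-3p was at -0.84 (adjusted p = 0.103) without both. miR-124a, the defining miRNA of mature neurons, stood at 0.132 to 0.938 CPM in uterus and 0 to 0.58 CPM in ovary and was too low to test. The part of nerve cells in the miR-9 result was not tested.

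Of 7 leukocyte miRNAs, 2 were lower in uterus and 1 higher, against 14.9% and 10.6% of all 350. miR-155-5p, known from activated lymphocytes, stood at 240.1, 540.1, 495, 665 and 546 CPM in the uteri, against 1126, 1239, 1095, 1577 and 1289 CPM in the ovaries. The groups did not overlap, and the call at a log2 fold change of -1.47 (SE 0.46, adjusted p = 0.016) was lost without uterus replicate 1 (-1.32, adjusted p = 0.0554). miR-146b-3p had a log2 fold change of -1.89 (adjusted p = 0.00547). The more abundant arm miR-146b-5p, at means of 172 CPM in uterus and 235 CPM in ovary, was not called (log2 fold change -0.435). The call of miR-146a (log2 fold change 1.57, adjusted p = 0.0452) was lost without uterus replicate 1, where the log2 fold change was 0.23. It was also lost without uterus replicate 5 or ovary replicate 1, 2, 3 or 5, and with library totals or a replicate block. miR-150 of mature lymphocytes ranged over 80.2 to 604 CPM in uterus and 33.1 to 576 CPM in ovary and miR-223-3p of myeloid cells over 2.24 to 8.45 CPM in uterus and 3.11 to 6.29 CPM in ovary, both with a log2 fold change near 0 (0.05 and 0.06) and neither called. Summed, the leukocyte list held 654 to 1331 CPM in the uteri and 1355 to 2178 CPM in the ovaries.

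Few blood, vessel and stroma markers were called, against 25.4% of all 350. Of the 2 tested red blood cell miRNAs, 0 were called. miR-451-5p had a log2 fold change of -0.06 (adjusted p = 0.96) and the other member 1.22. The median of this list was 0.58 with all libraries and -0.37 without uterus replicate 1. Its sum was 12.8 to 60.9 CPM in the uteri and 11.9 to 33.9 CPM in the ovaries. Of the endothelial pair, miR-126-3p was not called (log2 fold change 0.42, adjusted p = 0.406), and miR-126-5p was called higher at a log2 fold change of 1.17 (adjusted p = 0.0304). That call was lost without uterus replicate 1 (0.66) or 4 or ovary replicate 1, 2 (0.86) or 4, and with library totals or a replicate block. In the fibroblast and stroma list 0 of 5 members and in the miR-29 family, whose members repress collagen genes, 0 of 5 were called (1 member of the miR-29 family was lower without uterus replicate 1), with medians of 0.02 and -0.12. miR-199a-3p had all uteri above all ovaries and was not called (log2 fold change 0.65, adjusted p = 0.164). The other stroma members were at 0.78 (miR-199b-5p), 0.02 (miR-214-5p), -0.16 (miR-214-3p) and -0.44 (miR-199a-5p). Without the 7 doubted libraries 1 stroma member was called higher and 1, miR-199a-5p, lower. Reads shared by miR-199a and miR-199b leave their split uncertain. Liver miR-122 stood at 3.03 to 13.1 CPM in uterus and 3.11 to 12.8 CPM in ovary and was not called (log2 fold change -0.10, adjusted p = 0.939). No miRNA of the pluripotency list was in the table.

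Outside the lists, the lowest adjusted p among miRNAs lower in uterus, after miR-202, belonged to miR-148b-3p. miR-148b-3p stood at 2054, 2406, 1422, 1272 and 2470 CPM in the uteri, against 10031, 5635, 10666, 8426 and 6774 CPM in the ovaries. All uteri lay several-fold below all ovaries, with a log2 fold change of -2.18 (SE 0.32, adjusted p = 5.48e-06) that was called in every setting tried. RefSeq places its hairpin inside COPZ1. Another 6 of the 12 largest differences in this direction were those of miR-296-3p (log2 fold change -2.30, adjusted p = 0.00133), miR-3432-5p (log2 fold change -2.11, adjusted p = 0.00319), miR-125a-3p (log2 fold change -2.10, adjusted p = 0.00298), miR-130b-5p (log2 fold change -2.02, adjusted p = 0.00318), miR-195-3p (log2 fold change -1.98, adjusted p = 0.000372) and miR-671-3p (log2 fold change -1.84, adjusted p = 0.00637). With uterus replicate 1 and ovary replicate 2 both left out, miR-125a-3p was at -1.32 (adjusted p = 0.0627) and miR-671-3p at -1.40 (adjusted p = 0.0531), neither called, and miR-296-3p at -1.65, still called. Without ovary replicate 2 alone miR-125a-3p was at -1.59. miR-455-3p, studied in cartilage, stood at 184, 595, 470.1, 424 and 501 CPM in the uteri, against 1786, 1307, 1375, 1209 and 1523 CPM in the ovaries. Its groups did not overlap and its log2 fold change was -1.84 (SE 0.37, adjusted p = 0.000428).

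Of the unlisted miRNAs higher in uterus, miR-218, encoded inside the guidance gene SLIT3, stood at 588, 101, 99.5, 85.7 and 82.2 CPM in the uteri, against 13.3, 32.2, 31.3, 24.8 and 26.6 CPM in the ovaries. Replicate 1 was far above the other uteri, and the log2 fold change of 3.00 (SE 0.74, adjusted p = 0.00345) was 1.73 without it (adjusted p = 0.061), where the call was lost. miR-335-5p, encoded inside the imprinted gene MEST, stood at 74.5, 20.4, 15.3, 15.1 and 11.9 CPM in the uteri, against 2.61, 4.20, 5.28, 10.5 and 7.42 CPM in the ovaries. It too was highest in replicate 1, and its log2 fold change of 2.26 (SE 0.61, adjusted p = 0.00547) was 1.27 and no longer called without that library. The more abundant arm miR-335-3p, at means of 163 CPM in uterus and 123 CPM in ovary, was not called (log2 fold change 0.32).

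Few of the most abundant miRNAs were called, against 25.4% of all 350. Of the 10 with the highest mean in uterus, miR-10a-5p alone was called, and miR-26a-5p at 5.64% ± 0.724 of counts in uterus and 3.85% ± 0.769 in ovary had a log2 fold change of 0.48 (adjusted p = 0.337). miR-99a-5p, at 5.37% ± 0.417 in uterus and 6.91% ± 1.14 in ovary, had a log2 fold change of -0.44 (adjusted p = 0.44). The 10 most abundant together took 66.1% ± 4.70 of the counts in a uterus and 60.01% ± 1.95 in an ovary (SD, n = 5 each).

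Arms of 1 hairpin and hairpins of 1 cluster were compared with the calls in view. Of 114 hairpins with both arms tested, 10 had both arms called, each pair in the same direction, 41 had 1 arm called and 63 neither. The arms had the same sign in 85, and their log2 fold changes differed by a median of 0.608. The rarer arm alone was called for, among others, miR-7, miR-125a, miR-125b, miR-146b, miR-335, miR-382 and miR-500. In other hairpins the more abundant arm alone was called, among them miR-92a, miR-106b, miR-140, miR-148b, miR-151 and miR-455. In miR-424 the 3p arm was lower and the 5p arm not called, and in miR-148a the minor 5p arm was lower (log2 fold change -1.72, adjusted p = 0.00041) while the 3p arm, at 9479 to 74334 CPM in uterus and 26849 to 39102 CPM in ovary, was not called (log2 fold change -0.39, adjusted p = 0.683). By RefSeq, which matched 261 of the 263 hairpins, 38 groups of hairpins lay with gaps of at most 10000 bases. Of these, 21 held at least 1 call, 7 held 2 or more, and 0 held calls in both directions.

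The question whether the month 2 difference departed from that of another age was put by interaction terms, whose comparisons share the month 2 libraries. With edgeR 0 of 350 miRNAs were called against day 1 (0%), month 4 (0%) or month 6 (0%), with 47 (13.4%), 57 (16.3%) and 31 (8.86%) at an unadjusted p under 0.05. DESeq2 called 12, 0 and 1. The smallest adjusted p-values against day 1 were those of miR-148b-3p (interaction -1.83, adjusted p = 0.0532) and miR-495-3p (2.30, adjusted p = 0.0572). Without uterus replicate 1, miR-148b-3p was called at -1.92 (adjusted p = 0.0471).

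The levels at the other ages are given for the miRNAs above as means ± SD over 5 libraries each. miR-202-3p averaged 0 ± 0 CPM in uterus and 14.6 ± 14.8 CPM in ovary at day 1, 0.0256 ± 0.0573 CPM in uterus and 50.2 ± 34.5 CPM in ovary at month 4 and 0 ± 0 CPM in uterus and 40.1 ± 32.0 CPM in ovary at month 6. The arm was thus at or near 0 in the uteri of all 4 ages. miR-206 averaged 83.7 ± 28.4 CPM in uterus and 3.45 ± 1.97 CPM in ovary at day 1, 159 ± 95.4 CPM in uterus and 15.99 ± 8.15 CPM in ovary at month 4 and 196 ± 246 CPM in uterus and 9.50 ± 13.0 CPM in ovary at month 6. miR-148b-3p averaged 2862 ± 266 CPM in uterus and 3957 ± 2085 CPM in ovary at day 1, 1521 ± 233 CPM in uterus and 3135 ± 1546 CPM in ovary at month 4 and 1690.3 ± 359.9 CPM in uterus and 2314 ± 641 CPM in ovary at month 6. At month 2 it was 1925 ± 553 CPM in uterus and 8307 ± 2124 CPM in ovary (SD, n = 5 each), the highest ovary mean of the 4 ages.

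miR-10a-5p averaged 38358 ± 27462 CPM in uterus and 8962 ± 6079.5 CPM in ovary at day 1, 23799 ± 7015 CPM in uterus and 19817 ± 10697 CPM in ovary at month 4 and 23424 ± 10800.4 CPM in uterus and 11116 ± 12831 CPM in ovary at month 6. Its month 2 ovary mean, within 34047 ± 12818 CPM in uterus and 4000.2 ± 3936 CPM in ovary (SD, n = 5 each), was the lowest of the 4 ages, and none of its 3 interactions was called (the lowest adjusted p was 0.237, against month 4). miR-369-3p averaged 179.9 ± 41.3 CPM in uterus and 143 ± 62.5 CPM in ovary at day 1, 34.3 ± 12.9 CPM in uterus and 19.6 ± 13.1 CPM in ovary at month 4 and 46.7 ± 19.6 CPM in uterus and 11.7 ± 7.79 CPM in ovary at month 6, with an interaction of 2.23 against day 1 (adjusted p = 0.0729), which was called at 2.57 with the stricter filter (adjusted p = 0.0259) and by DESeq2 at 2.51 (adjusted p = 0.00751). miR-495-3p was called in the same 2 settings at 2.47 and 2.50.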

How the data were processed

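Read counts per mature miRNA were deposited by the authors as 1 table of all 40 libraries, with no normalization per the file headers and values (whole numbers). The submitters' processing notes name cutadapt 1.16, Bowtie 1.0.1 and RSEM 1.3.0. The build of the genome, the source of the miRNA names and the treatment of reads that match several miRNAs are not given in the sources used here, and a shared read could move signal among near-identical miRNAs.

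Groups were taken from the labels. Counts were fitted in R 4.3.3 with edgeR 4.0.16: filterByExpr, TMM scaling (factors 0.875 to 1.497 over the 10 libraries), 8 groups of tissue and age in 1 quasi-likelihood fit over all 40 libraries (common biological coefficient of variation 0.628), and Benjamini-Hochberg adjustment over the 350 miRNAs kept. SE is the absolute log2 fold change divided by the square root of F. The scripts were tested on simulated data. Detected miRNAs were compared by an exact permutation test. P-values measure the spread between individuals, which the labels number separately. Alternatives were DESeq2 1.42.0 (test and size factors), library totals, other filters, a replicate block, the month 2 libraries alone, 7 doubted libraries left out and each month 2 library left out in turn. Leaving out uterus replicate 1 together with ovary replicate 2 was chosen after seeing the data.

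Named miRNAs are the 12 largest called changes in each direction with a mean of at least 10 CPM, the 10 most abundant in each tissue, and members of 20 lists. The members, lists and tests were chosen with earlier results of these data known. Neighbours come from RefSeq genes of ARS1.2, used for names and order only.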

Additional observations from a re-analysis of the deposited data

Results flagged for a closer look

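In each tissue at month 2, the library farthest from its group was sought for every named miRNA, by the ratio of its gap from the nearest of the other 4 libraries to the range of all 5. That ratio passed Dixon's critical value of 0.71 in 42 of 184 groups (22.8%). Chance flags about 1 in 20 groups of normally distributed values, and CPM values of rare miRNAs are not such values. Where 4 libraries are at 0 and 1 is not, as for miR-202-5p in uterus, miR-34b-5p in both tissues, miR-449b-3p in uterus and miR-449b-5p in ovary, the ratio is at its highest by construction, so the 22.8% is not to be read against that rate. All values below are CPM, and no cause was tested.

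Uterus replicate 1 was the library apart in 19 of the 42. It stood above the other uteri for 16 miRNAs: miR-1 at 6115, miR-126-5p at 213, miR-136-3p at 146, miR-141 at 17.3, miR-143-3p at 245780.1, miR-146a at 39.8, miR-199b-5p at 10217, miR-202-5p at 0.402, miR-21-5p at 13511, miR-218 at 588, miR-335-5p at 74.5, miR-34b-5p at 2.41, miR-34c-5p at 3652, miR-376e-3p at 16.8, miR-3959-5p at 226 and miR-96 at 6.30. It stood below them for 3: miR-10b-3p at 39.8, miR-128-3p at 130.3 and miR-130b-5p at 10.1. The muscle miRNA miR-1, the smooth muscle miR-143-3p, the ciliated epithelium miR-34c-5p and the DLK1-DIO3 members miR-136-3p, miR-376e-3p and miR-3959-5p are among the high ones.

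Ovary replicate 2 was the library apart in 14, high in each: miR-10a-3p at 32.2, miR-125a-3p at 297, miR-200a at 411, miR-200b at 5991, miR-200c at 623, miR-296-3p at 564, miR-34b-3p at 612, miR-34b-5p at 0.175, miR-34c-3p at 34.1, miR-34c-5p at 733, miR-429 at 7.34, miR-449a-5p at 62.2, miR-449b-3p at 3.85 and miR-449b-5p at 1.40. Of these, 4 belong to the miR-200 family and 7 to the miR-34/miR-449 family.

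The remaining 9 were spread over other libraries. Uterus replicate 2 was high for miR-196a at 302 and miR-449b-3p at 0.659, and uterus replicate 5 for miR-146b-3p at 7.42. Ovary replicate 4 was high for miR-196a at 156 and miR-196b at 543, both embedded in HOX clusters. Ovary replicate 5 was high for miR-214-3p at 2210.1 and miR-495-3p at 42.8, ovary replicate 3 for miR-378-3p at 6042, and ovary replicate 1 for miR-96 at 0.725.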

How the results depend on the processing

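Counts of calls moved more than directions. Against 37 higher and 52 lower with all libraries, DESeq2's test gave 63 and 49, the month 2 libraries alone 67 and 43, leaving out the 7 doubted libraries 57 and 43, and a strict filter (10 CPM or more in 5 or more libraries) 48 and 33. DESeq2 size factors gave 51 and 44, library totals 37 and 36, and no filter 29 and 54. Leaving out 1 library at a time gave 64 to 91 calls, 22 to 36 higher and 38 to 58 lower, with 22 of the 37 and 38 of the 52 kept without uterus replicate 1, and 24 higher without ovary replicate 3. Without uterus replicate 1 and ovary replicate 2 together 55 were called, 18 higher and 37 lower. For the interaction with day 1, DESeq2 called 12, the strict filter 2 and leaving out single libraries 0 to 1, and for month 6 DESeq2 and the strict filter called 1 each (miR-335-5p). The difference in detected miRNAs was 12.2 at a minimum of 10 counts (exact permutation p = 0.0238), and 6.40 to 12.65 without single libraries. Every uterus library had a higher total than every ovary library, so depth and tissue cannot be told apart in these detection counts.

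With a replicate block of age by individual number, 76 were called, 31 higher and 45 lower. Same-numbered uterus and ovary deviated together at correlations of -0.32 to 0.245, over 0.1 in 2 of 5 pairs, and 2 of 5 uteri correlated best with the ovary of their own number, so the numbers were not taken as pairs. Over 89 named miRNAs and 1677 alternative values, 1456 kept side and direction or were uncalled in both, 163 lost a call and 57 gained one. Among the 1456, 73 values of 16 miRNAs changed sign with no call on either side. miR-146a turned to -0.027 with both libraries out. Of the 52 named calls, 24 were lost in no setting. Counting depth limits the rarest miRNAs, where 3 counts of a uterus total are the floor.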

Other observations

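A group of hairpins next to each other by RefSeq, the X-linked miR-362/miR-500/miR-502/miR-660 group, was picked out after its values were seen. Of its 6 tested miRNAs, 3 were higher in uterus (against 10.6% of all 350) and 0 lower. The median log2 fold change of the 6 was 0.95. miR-660 stood at 455, 508, 439, 396 and 433 CPM in the uteri, against 185, 173, 288, 259 and 308 CPM in the ovaries, with all uteri above all ovaries and a log2 fold change of 0.86 (adjusted p = 0.0049) in edgeR. miR-362-5p had a log2 fold change of 1.05 (adjusted p = 0.00547) and miR-500-5p a log2 fold change of 1.17 (adjusted p = 0.0358), and the groups overlapped for both. Without ovary replicate 2 none of these 3 was called, with adjusted p-values of 0.053 for miR-660, 0.0765 for miR-362-5p and 0.145 for miR-500-5p.

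Other miRNAs outside the lists and also picked after their values were seen included miR-23b-3p, an abundant miRNA whose hairpin RefSeq places inside C8H9orf3, at 5569 ± 2081 CPM in uterus and 2879 ± 229 CPM in ovary (SD, n = 5 each), higher in uterus at a log2 fold change of 0.83 (adjusted p = 0.0255) and 1.01 without uterus replicate 1. miR-490, inside the muscarinic receptor gene CHRM2, stood at 104, 90.9, 43.1, 52.3 and 57.1 CPM in the uteri, against 7.54, 19.6, 20.4, 17.8 and 22.3 CPM in the ovaries, with all uteri above all ovaries and a log2 fold change of 2.00 (adjusted p = 0.0179), a call lost without uterus replicate 1 (1.70). miR-140-3p, a miRNA of cartilage, averaged 1442 ± 257 CPM in uterus and 3440.1 ± 732 CPM in ovary (SD, n = 5 each) and was lower in uterus at a log2 fold change of -1.27 (adjusted p = 0.000767). miR-125b-3p averaged 946 ± 302 CPM in uterus and 2652 ± 382 CPM in ovary (SD, n = 5 each) and was lower at a log2 fold change of -1.61 (adjusted p = 5.08e-05), with all uteri below all ovaries.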
